A study of Mus musculus with 2 samples.

Results

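The tripartite motif (TRIM) genes were followed in unstimulated dendritic cells that had been cultured from marrow of 2 mouse strains, CBA/J and C57BL/6. Members were the genes of the annotated array table whose single symbol was Trim followed by a number, 57 of 21922 genes, on 15 chromosomes. Each of the 57 was represented by 1 probe set, so the rule of taking the brightest probe set of a gene chose nothing. Cells of both strains came from normal mice, were cultured with a supernatant containing GM-CSF, harvested on day 7 and left without treatment for 4 h after plating, when replicate wells were pooled. Each strain was measured on 1 Affymetrix Mouse Gene 1.0 ST array. With a single array per strain there was neither replicate spread nor a test, and strain, culture and array cannot be told apart. How many mice were used, their sex and the substrain of C57BL/6 are not given in the sources used here.

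TRIM proteins share an N-terminal RING finger, which makes most of them ubiquitin ligases, followed by B-box zinc fingers and a coiled coil. The C-terminal domain differs between subfamilies and sets what the protein binds. The PRY-SPRY domain is carried by the largest subfamily, which includes retrovirus restriction factors and regulators of interferon and NF-kB signalling. In myeloid cells the family is best known for antiviral defence and for tuning the response to Toll-like and RIG-I-like receptors, and many members are interferon inducible.

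Values are log2 signals, and a pair of signals always gives CBA/J first and C57BL/6 second. Differences are the signal in CBA/J minus that in C57BL/6. Signals of different probe sets depend on their probes and were not set against each other as levels. A gene reached the level rule when the higher of its signals was at or above the median over genes of that array, 6.16 for CBA/J and 6.21 for C57BL/6. Negative control probe sets had medians of 5.49 and 5.27. Where only the dimmer array lay below its negative control median, the ratio was taken to that median instead and is written as at least N-fold, which bounds the background and not the noise. The level rule is not a background limit, since 1845 of 5222 negative controls reached it, and their 95th percentiles were 8.28 and 8.17. Of these 1845, 4.34% had 2-fold or more signal in CBA/J and 1.14% in C57BL/6. At 1.5-fold the shares were 20.1% and 5.37%, so a difference of that size in a single gene is within the range of these controls.

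Most TRIM genes differed little between the strains, and a few differed by 1.5-fold or more. Of the 57 members, 35 (61.4%) reached the level rule, against 52.2% of all genes. The difference was smaller than 0.26, the robust SD over all genes that reached the rule, in 21 of the 35, or 60%, against 64.6% of genes. A difference of 1.5-fold or more was found in 8 of the 35, or 22.9%, against 6.93% of genes. None was at least 2-fold higher in CBA/J, where 1.35% of all genes that reached the level rule were. Trim12 and Trim36 were at least 2-fold higher in C57BL/6, 2 of 35 members, where the share of all genes was 0.795%. At 1.5-fold, Trim13, Trim21 and Trim47 were higher in CBA/J (4.46% of all genes) and Trim12, Trim36, Trim25, Trim6 and Trim16 were higher in C57BL/6 (2.47% of all genes). These 8 members lie on chromosomes 7 (Trim12, Trim6 and Trim21), 11 (Trim25, Trim16 and Trim47), 14 (Trim13) and 18 (Trim36). Trim12, Trim6 and Trim16 had CBA/J signals under the median of that array, at 5.00, 5.62 and 5.76. They thus reached the rule only through the array where they were higher, and the same rule was applied to all genes. The member just past the 2-fold limit was Trim36 at -1.04, and the nearest ones short of it were Trim25 at -0.69 and, in the other direction, Trim13 at 0.66. The median difference of the 35 members was 0.11, beside 0.08 for all genes, with CBA/J the higher array for 24 members and C57BL/6 for 11, a split that became 20 and 15 after quantile normalization. The share toward CBA/J was 68.6% of the 35 members and 61.3% of all genes that reached the rule.

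**Figure D1:**
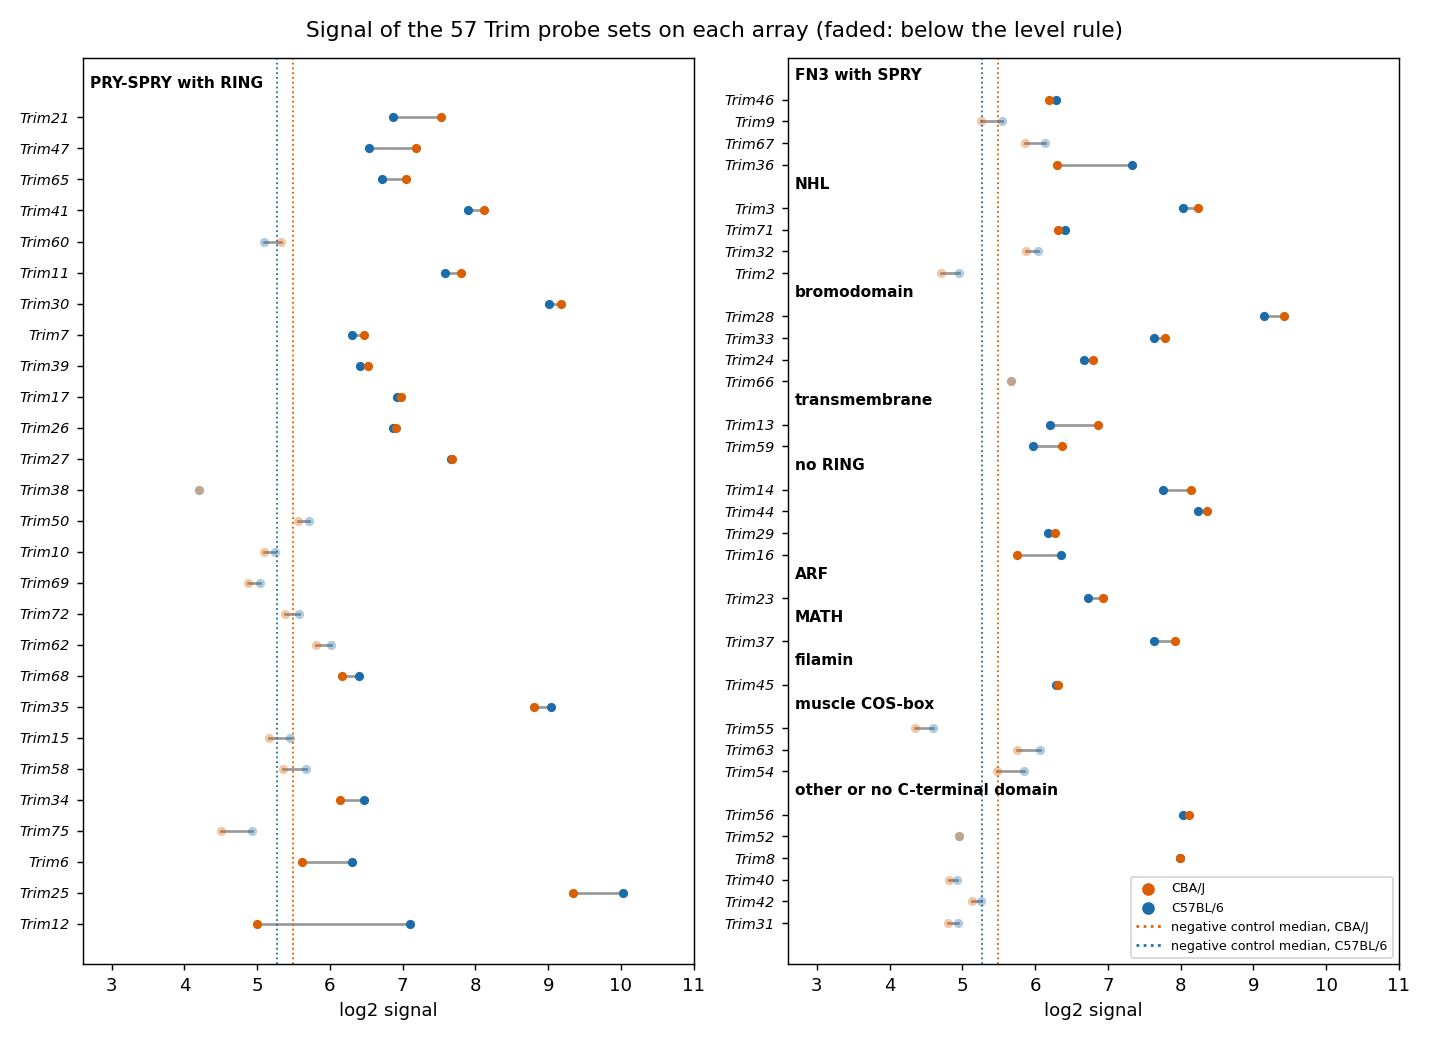
Log2 signal of each of the 57 Trim probe sets on the CBA/J array (orange) and the C57BL/6 array (blue). Members are grouped by the C-terminal domain listed for their Trim number, with dotted lines at the negative control median of each array. Trim12 spans the widest gap, from 5.00 in CBA/J to 7.10 in C57BL/6, and the 22 faded members lie below the level rule.

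**Figure D2:**
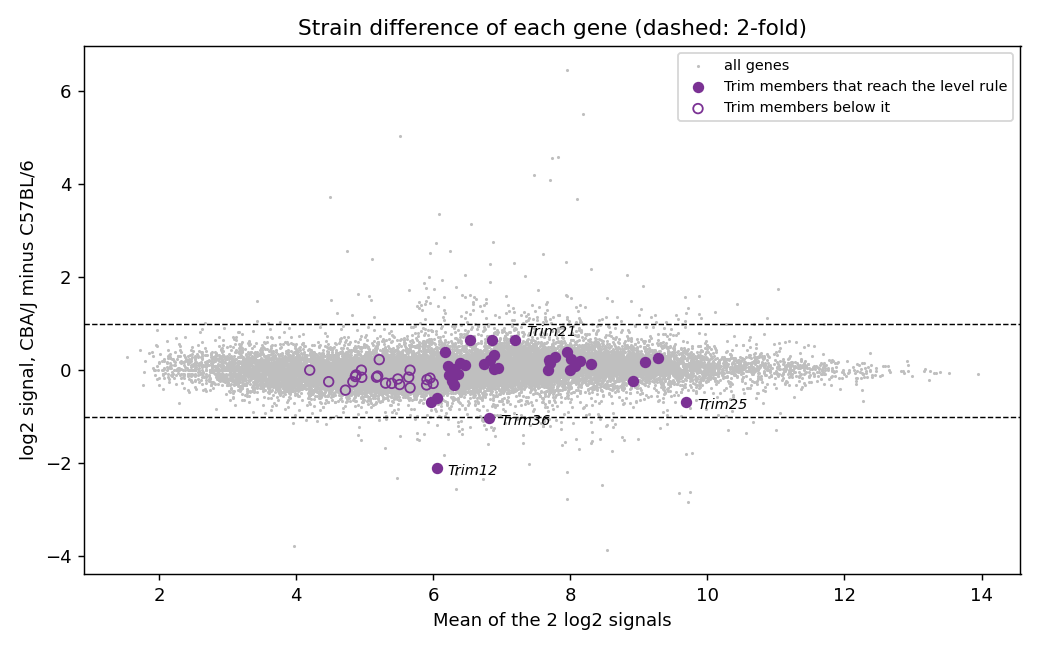
Difference between the strains (CBA/J minus C57BL/6, log2) against the mean log2 signal for all genes (grey) and Trim members (purple), with dashed lines at 2-fold. Trim12 and Trim36 are the members past the lower line, and no member is past the upper one.

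The largest difference lay in the chromosome 7 run, where the mouse holds a rodent-specific expansion of genes related to primate TRIM5, the cytoplasmic restriction factor that binds incoming retroviral capsids. In RefSeq the stretch from Trim6 to Trim30e-ps1 holds 11 Trim genes, of which 8 were matched to a probe set and follow each other among measured genes. Of these 8, 4 were members and 4 were listed under older symbols. The members, in order, were Trim6, Trim34 (now Trim34a), Trim12 (now Trim12a) and Trim30 (now Trim30a). The remaining 4 were 9230105E10Rik, now Trim12c, A530023O14Rik, now Trim30b, AI451617, now Trim30d, and EG625321, now the pseudogene Trim30e-ps1. The Trim12 copies are close duplicates of each other, as are the Trim30 copies. The deposited annotation marks no member for cross-hybridization, but signals of such close copies are uncertain, since RNA of a copy may bind the probes of another.

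The start regions of the Trim12 and Trim30 copies show how alike these genes are. The stretches below run from 150 bases before to 20 bases after a RefSeq gene start (GRCm38.p6, minus strand). Trim30a has more than 1 start in that table, and the one shown is the start most like that of Trim30d. They lie at chr7:104315476-104315645 for Trim12a, chr7:104353330-104353499 for Trim12c, chr7:104465174-104465343 for Trim30a and chr7:104507830-104507999 for Trim30d. Capitals mark the match to the interferon-stimulated response element core (GAAA, any 2 bases, GAAA), which here lies on the opposite strand and so reads TTTC, any 2 bases, TTTC.
Trim12a: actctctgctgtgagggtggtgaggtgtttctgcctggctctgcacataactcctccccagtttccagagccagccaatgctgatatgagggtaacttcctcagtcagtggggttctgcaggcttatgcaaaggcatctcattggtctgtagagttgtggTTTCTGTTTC
Trim12c: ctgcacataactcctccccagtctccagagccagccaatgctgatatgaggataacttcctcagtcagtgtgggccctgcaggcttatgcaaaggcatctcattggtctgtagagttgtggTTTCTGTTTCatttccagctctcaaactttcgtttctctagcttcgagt
Trim30a: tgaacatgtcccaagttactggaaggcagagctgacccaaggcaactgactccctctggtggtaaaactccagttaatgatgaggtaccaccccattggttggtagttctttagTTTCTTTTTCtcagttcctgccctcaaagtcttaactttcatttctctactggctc
Trim30d: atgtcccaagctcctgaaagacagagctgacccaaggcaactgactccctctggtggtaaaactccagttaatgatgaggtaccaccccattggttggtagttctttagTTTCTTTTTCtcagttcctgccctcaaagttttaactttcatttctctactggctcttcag
Over the whole windows of 250 bases before to 50 after the start, Trim12a and Trim12c were identical at 247 of 260 aligned bases, and Trim30a and Trim30d at 276 of 295. The other Trim30a window was identical to that of Trim30d at 225 of 255 aligned bases.

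Signals of these copies differed between the strains to unlike degrees. Trim12 was measured at 5.00 on the CBA/J array and at 7.10 on the C57BL/6 array, a difference of -2.10 and at least 3.06-fold higher in C57BL/6. Its CBA/J signal lay below the negative control median, and 12.9% of negative controls had a C57BL/6 signal above that of Trim12. Of all genes that reached the level rule, 13 had a difference as negative as that of Trim12 or more so, as did 2 of the negative controls. These counts rest on the measured -2.10, and the difference taken to the negative control median was -1.61.

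Trim12c, the neighbouring copy, had 2 probe sets that disagreed. The first was at 7.25 and 7.93, a difference of -0.68. The second was at 7.45 and 6.80, a difference of 0.65. The direction for Trim12c thus depended on the probe set, and all 4 signals lay below the 95th percentile of the negative controls.

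The Trim30 copies also differed from each other. Trim30, a feedback inhibitor of Toll-like receptor signalling in mouse macrophages that promotes the loss of TAB2 and TAB3, was at 9.18 and 9.01. That difference of 0.17 is smaller than the robust SD over all genes. Trim30d was at 4.32 and 6.63, a difference of -2.31 and at least 2.21-fold higher in C57BL/6. Its CBA/J signal lay below the negative control median, and the difference taken to that median was -1.14. Of all genes that reached the level rule, 9 had a difference as negative as that of Trim30d or more so, as did 0 of the negative controls. These counts rest on the measured -2.31. A limit of -1.04, the measured difference of Trim36 and close to the -1.14, was reached by 20 of the 1845 negative controls. Trim30b (4.89 and 4.59) and Trim30e-ps1 (3.34 and 3.69) lay below the negative control medians on both arrays.

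At the start of the run, Trim6 and Trim34 were also higher in C57BL/6. Trim6, whose human counterpart makes free ubiquitin chains that activate the kinase IKK-epsilon, was at 5.62 and 6.30, 1.61-fold higher in C57BL/6. Trim34 was at 6.14 and 6.46, a difference of -0.33. Both CBA/J signals were under the median over genes of that array, while both C57BL/6 signals were above theirs.

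The 16 flanking genes, 8 on each side, mostly olfactory receptor and ubiquilin genes, had differences between -0.42 and 0.26, with a median of -0.06 and none past 2-fold. Their signals were low, at most 5.71 in CBA/J and 5.88 in C57BL/6, and 11 of them lay below both negative control medians. On chromosome 7 as a whole, 909 genes reached the level rule and had a median of 0.04, with 8 genes past 2-fold toward CBA/J and 11 toward C57BL/6.

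**Figure D3:**
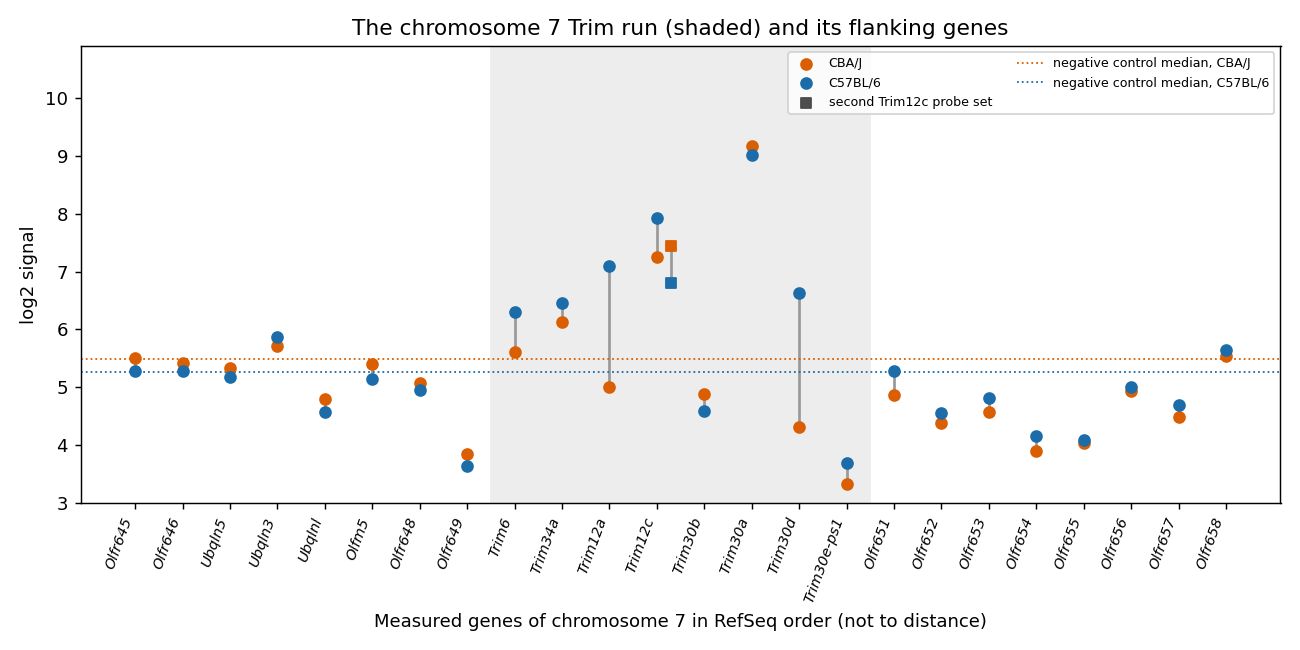
Log2 signal on the CBA/J array (orange) and the C57BL/6 array (blue) for measured genes of chromosome 7 in RefSeq order, with the Trim run shaded; squares are the second Trim12c probe set and dotted lines the negative control medians. Trim12a and Trim30d drop below the CBA/J line, whereas Trim30a is at 9.18 and 9.01.

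The other chromosome 7 members lie outside the run. Trim21, the cytosolic antibody receptor also known as the autoantigen Ro52, was at 7.52 and 6.87, a difference of 0.65 and 1.57-fold higher in CBA/J. Trim68, at 6.17 and 6.40, differed by -0.23. Trim3, an NHL-domain protein best known from neurons, was at 8.24 and 8.03. Trim28 was 1.21-fold higher in CBA/J and is described with the other bromodomain proteins below. Trim66 was equal on both arrays at 5.66, and Trim72, the muscle membrane repair protein MG53, was at 5.39 and 5.58; both were below the level rule.

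Structural lists were assigned by Trim number from general knowledge of the family. The domains of single mouse proteins, that of Trim12a among them, were not checked. Among the members listed with a RING and a PRY-SPRY domain, 17 of 27 reached the level rule, with a median of 0.05. Signal was higher in C57BL/6 for 6 of them and in CBA/J for 11 (64.7%, against 61.3% of all genes that reached the rule). Trim25, the interferon-inducible ligase that ubiquitinates RIG-I, was at 9.34 and 10.03, 1.61-fold higher in C57BL/6. Trim65, a ligase for the RNA sensor MDA5, differed the other way, at 7.05 and 6.72, a difference of 0.33. Its neighbour in gene order, Trim47, was at 7.18 and 6.54, a difference of 0.64. Thus 2 ligases of the cytoplasmic RNA sensors had opposite signs, neither past 2-fold.

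Trim35, first described in blood cell lineage switching, was at 8.80 and 9.04, a difference of -0.24. Trim41 (0.23), Trim11 (0.22) and Trim7 (0.16) were slightly higher in CBA/J. Trim39 (0.11), Trim17 (0.05), Trim26 (0.04) and Trim27 (0.01) lay near 0. The signs of Trim17, Trim26 and Trim27 turned after quantile normalization.

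The chromosome 17 run lies beside class I genes of the major histocompatibility complex and holds, in order, Trim26, Trim15, Trim10, Trim40 and Trim31. Trim26 reached the level rule, at 6.91 and 6.87. The other members of the run did not. Trim15 was at 5.17 and 5.44, Trim10 at 5.10 and 5.25, Trim40 at 4.82 and 4.93, and Trim31, a regulator of NLRP3 in mouse macrophages, at 4.80 and 4.93. The CBA/J signals of these 4 lay below the negative control median. Trim39, also on chromosome 17, was at 6.52 and 6.42.

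Members that bind microtubules through a COS box, with a fibronectin type III and a SPRY domain, numbered 4, all with lower signal in CBA/J. The level rule was reached by 2 of them. Below the rule, 61.1% of all genes were higher in C57BL/6, and among genes that reached it 61.3% were higher in CBA/J. Trim36, which is known from sperm and from the microtubule cytoskeleton, was at 6.30 and 7.33, a difference of -1.04 and 2.05-fold higher in C57BL/6. Of all genes that reached the level rule, 86 had a difference as negative or more so, as did 20 of the negative controls. Trim46, which organises microtubules in axons, was at 6.19 and 6.28. The neuronal members Trim9 (5.25 and 5.54) and Trim67 (5.86 and 6.14) were below the level rule. Mid1, a gene of the same subfamily under another name and the cause of Opitz syndrome in humans, was at 6.18 and 6.88, a difference of -0.70. Its close relative Mid2, at 4.19 and 4.09, was below both negative control medians.

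The bromodomain members are transcriptional co-regulators. Trim28, the KAP1 corepressor that KRAB zinc finger proteins recruit to silence retroelements, was at 9.42 and 9.15. Trim33, which acts on SMAD4, was at 7.78 and 7.63, and Trim24, a partner of the retinoic acid receptor, at 6.80 and 6.67. All 3 that reached the level rule were higher in CBA/J, by 0.27, 0.15 and 0.13, so that only the difference of Trim28 was larger than the robust SD of all genes. Partners of TRIM28 in silencing had a median of 0.21, with 7 of 9 higher in CBA/J, where 61.3% of all genes were, and none past 2-fold. The probe set of 1 of the 9, Cbx3, lies on another chromosome than the RefSeq gene. Among them the histone methyltransferase gene Setdb1 was at 0.18, Atf7ip at 0.30 and the nucleosome remodeller gene Chd4 at 0.29.

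Both members with a transmembrane segment were higher in CBA/J, as were 61.3% of all genes that reached the level rule. Trim13, an endoplasmic reticulum ligase, was at 6.87 and 6.21, a difference of 0.66 and 1.58-fold higher in CBA/J. A predicted transcript that the file describes as similar to Trim13, EG668786, was at 6.80 and 6.44, so shared signal between these copies is possible. Trim59 was at 6.36 and 5.97, a difference of 0.39, and reached the level rule only through CBA/J, where it was higher.

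Of the 4 members without a RING finger, 3 were higher in CBA/J, where 61.3% of all genes that reached the level rule were. Trim14, a mitochondrial adaptor of MAVS signalling, was at 8.14 and 7.75, a difference of 0.39. Trim44 (8.37 and 8.24) and Trim29 (6.27 and 6.17) differed less. Trim16 was at 5.76 and 6.35, 1.51-fold higher in C57BL/6. Trim29 and Trim16 each reached the level rule only through the array where they were higher.

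The remaining members with signal above the level rule differed little. Trim37, which carries a MATH domain and is mutated in human mulibrey nanism, was at 7.92 and 7.64, a difference of 0.28. Trim23, which carries an ARF GTPase domain, was at 6.94 and 6.73. Trim56, a ligase linked to STING signalling, was at 8.12 and 8.03, and Trim8, which acts on TAK1, was at 7.99 in CBA/J with a difference of -0.00. Trim45, which carries a filamin domain, was at 6.32 and 6.29, and the NHL member Trim71, the stem cell protein LIN41, at 6.32 and 6.41. The promyelocytic leukaemia gene Pml, also a TRIM gene by structure, was at 7.50 and 7.41, and Mefv, which encodes pyrin, at 7.17 and 6.81.

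The 22 members below the level rule included genes best known from other tissues. The muscle RING finger genes Trim54 (5.47 and 5.85), Trim55 (4.35 and 4.60) and Trim63 (5.74 and 6.06) were among them, as were the neuronal Trim2 (4.70 and 4.95) and the erythroid Trim58 (5.36 and 5.67). Trim32, Trim38, Trim42, Trim50, Trim52, Trim60, Trim62, Trim69 and Trim75 were also below the rule. Of the 22, 18 were higher in C57BL/6 and 1, Trim60, in CBA/J, with a median of -0.18. Signals of 11 of the 22, Trim60 among them, lay below the negative control medians on both arrays. All 10480 genes below the level rule leaned the same way, with 61.1% higher in C57BL/6 and a median of -0.08. Trim38, Trim52 and Trim66 had equal signals on the arrays, which 4.55% of genes below the level rule and 0.725% of the others also had.

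In the annotation deposited with the values, 55 of the 57 members carried the term zinc ion binding, against 8.42% of all genes. That share reflects the zinc fingers by which the family is defined. The term nucleus was given to 17 members (29.8%, against 17.3% of all genes), of which 13 reached the level rule, 11 of them higher in CBA/J. The term cytoplasm was given to 28 (49.1%, against 14.5%), of which 22 reached the level rule, 14 of them higher in CBA/J. Of all genes that reached the rule, 61.3% were higher in CBA/J.

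Matches to the interferon response element core were found both in the chromosome 7 run and outside it. The motif (GAAA, any 2 bases, GAAA) was searched on both strands, overlaps counted, in windows from 250 bases before to 50 after RefSeq gene starts. A window was in the table for 44 of the 57 members, and 6 of these (13.6%) held a match, against 3.99% of 27025 genes. The 6 were Trim12a, Trim30a, Trim34a, Trim21, Trim26 and Trim2. In the run 6 of 10 Trim genes with a window held a match. Besides Trim12a, Trim30a and Trim34a these were Trim12c, Trim30d and Trim5, none of them members. Trim21 and Trim26 each held a pair of overlapping matches, and Trim25 held none. Of the 5 members with a match that reached the level rule, 3 (Trim21, Trim30 and Trim26) were higher in CBA/J, the last only by 0.04, and 2 (Trim12 and Trim34) in C57BL/6. A match was therefore found with differences of both signs.

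Genes through which TRIM ligases act on innate signalling differed little. Of 21 listed genes of RIG-I, STING and interferon signalling, 20 reached the level rule, 17 of them higher in CBA/J (61.3% of all genes) and none past 2-fold, with a median of 0.19 beside 0.08 for all genes. The gene below the rule, Isg15 (5.81 and 6.11), was read from a probe set on another chromosome than the RefSeq gene. Ddx58, which encodes RIG-I, the target of TRIM25, was at 7.89 and 7.70. Ifih1, which encodes MDA5, the target of TRIM65, was at 7.42 and 7.23. The largest differences of the list were in Usp18 (0.84), an interferon feedback gene, and Irf1 (0.64). Irf3 (-0.10) and Tyk2 (-0.05) were among those with lower signal in CBA/J.

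NF-kB signalling genes had a median of -0.00 over 11 genes, with 5 higher in CBA/J, 6 higher in C57BL/6 and none past 2-fold. CBA/J was the higher array for 61.3% of all genes that reached the rule. Tab2 and Tab3, the targets of TRIM30 named above, were listed as Map3k7ip2 (10.10 in CBA/J and 9.83 in C57BL/6) and Map3k7ip3 (7.78 and 7.53). Traf6, a ligase upstream of them, was at 7.78 and 8.15. Ubiquitin-activating and conjugating enzyme genes had a median of 0.01 over 13 genes, with 7 higher in CBA/J and none past 2-fold. The brightest probe sets of 5 of these 13 lie on another chromosome than the RefSeq gene, and the median without them was 0.03. Among the other 8, the conjugating enzyme gene Ube2e2 had a difference of 0.46 and Uba7, the activating enzyme of ISG15 listed as Ube1l, one of -0.24.

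**Figure D4:**
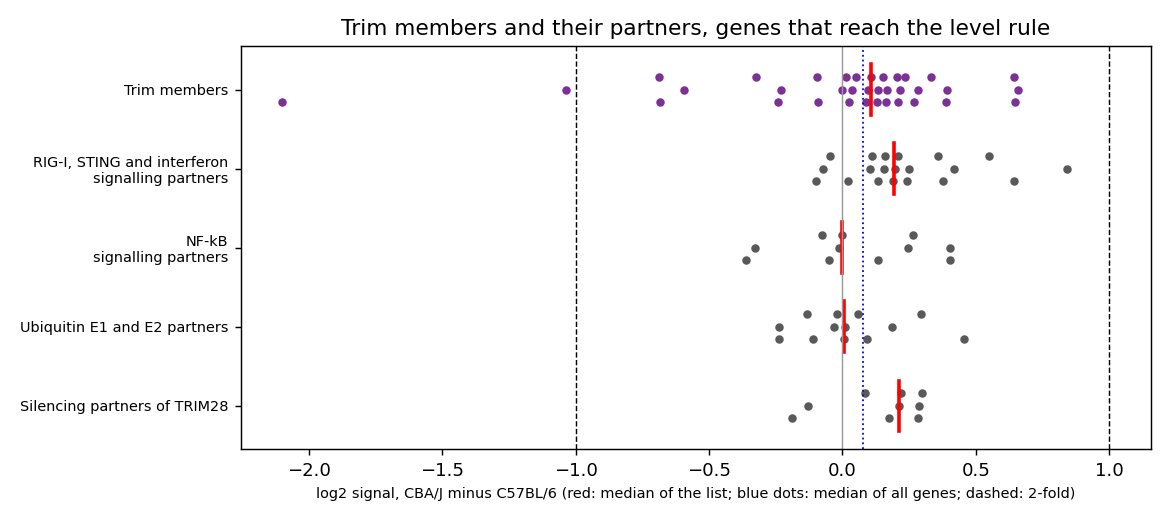
Differences between the strains (CBA/J minus C57BL/6, log2) of the 35 Trim members and of 4 lists of partner genes that reached the level rule, each point a gene, with the list median in red, the median of all genes as a blue dotted line and 2-fold as dashed lines. Among the points, those past 2-fold are the Trim members Trim12 and Trim36.

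Marker genes of the cells in these cultures also differed. Dendritic cell markers were present, with Itgax at 10.50 and 10.63. Higher in C57BL/6 were 7 of 8 that reached the level rule, 3 of them (Ccr7, Cd83 and H2-Ab1) past 2-fold. Differences of the other markers that reached it ran from -0.30 (Cd74) to 0.08 (Cd86), with H2-Aa at -0.26. CBA/J was the higher array for 61.3% of all genes that reached the rule. Monocyte and macrophage markers were higher in CBA/J for 7 of 8, with Ccr2 and Mrc1 past 2-fold, and their log2 summed signals were 13.42 and 12.89. For 7 neutrophil markers the log2 summed signals were 10.52 and 8.96 in the same order, and the 4 that reached the level rule were all past 2-fold higher in CBA/J. Of 6 mast cell and basophil markers, Cpa3 reached the level rule and was higher in C57BL/6. Of 4 plasmacytoid dendritic cell markers, Bst2 (-0.75) and Tcf4 (-0.21) reached the rule and were higher in C57BL/6. The others, Siglech (0.08) and Ccr9 (0.29), were below the rule and higher in CBA/J. Signals of Ccr9 lay below both negative control medians. Of 4 stromal markers, 3 were higher in CBA/J. No marker of either list was past 2-fold. Listed markers of eosinophils, T and NK cells and B cells did not reach it on either array. In a pool of cells, fewer cells of a type and less RNA per cell cannot be told apart, and the part of these shifts in the Trim differences was not tested.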

How the data were processed

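Per the submitters' processing notes, arrays were processed with Affymetrix Expression Console 1.1, with summarization and normalization not given in the sources used here. Per the file headers, the deposited values are a log2 signal for every probe set and array, a log2 difference between strains and the same difference as a linear ratio. The deposited differences equalled computed ones within 1e-06 in all 35557 probe sets, and the series value table was identical. Arrays have no read depth, and their number (2) limits the precision. Probes of this array type were designed on the mouse reference genome, that of C57BL/6, and probe sequences were not used here.

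Members and gene lists were chosen with earlier results of these data known. Of the probe sets, 24422 had 1 symbol, and a gene was represented by its brightest one. Named with both signals were members past 2-fold, all those of chromosomes with a run of 3 or more Trim members, those nearest the limit, the 5 brightest and the 2 largest differences of each structural list; others are named where useful. Names, gene order and start regions came from RefSeq (GRCm38.p6), to which all 57 members matched; the array annotation's own build was not needed. Alternatives in scaling, level filter, threshold, probe set choice, background and naming were recomputed, and the calculations were tested on simulated data. Python 3.11.15, numpy 2.4.6, pandas 2.3.3 and statsmodels 0.14.6 were used.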

Additional observations from a re-analysis of the deposited data

How the results depend on the processing

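No member was at least 2-fold higher in CBA/J in any setting with that threshold, and 3 were at 1.5-fold. The 2 members at least 2-fold higher in C57BL/6 became 5 at 1.5-fold and 1 under the stricter level filter, which leaves out Trim12 because its CBA/J signal lies under the median. Finding Trim genes by their current RefSeq names, an alternative chosen after seeing the data, gave 3 of 36, the added gene being Trim30d. The count stayed at 2 under quantile normalization, centring, trend removal, no level filter, the mean of probe sets, raising to the negative control medians and the series value table. The median difference of 0.11 ranged from -0.00 with no level filter to 0.13 with the stricter filter. The mean of the members was -0.01, of opposite sign to their median. Raised to the negative control medians, Trim12 was at -1.61 and Trim15 at 0.04. Quantile normalization turned the sign of 4 members (Trim17, Trim26, Trim27 and Trim56), centring that of 4 (Trim17, Trim26, Trim27 and Trim45) and trend removal that of 3 (Trim26, Trim27 and Trim56), while no single member moved by more than 0.12 under these scalings. No paired analysis was possible because each strain had 1 array. Leaving out partner genes whose probe set lies on another chromosome than the RefSeq gene, also chosen after seeing the data, moved no list median by more than 0.03.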
